A study of Mus musculus with 4 samples.

Results

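The integrin and laminin chain genes were taken from the deposited expression table by symbol: 27 genes whose symbol names an integrin alpha or beta chain and 11 whose symbol names a laminin alpha, beta or gamma chain, 38 of 25571 genes in all. The integrins comprised 18 alpha and 9 beta chains. They were divided by where each chain is known to be made: 9 integrin genes of leukocytes, 1 of platelets, 5 of epithelia, and 12 of mesenchymal or vascular cells or of most cells. The laminins were divided into chains of laminin-332, the laminin of the epidermal basement membrane, and 8 others. RNA came from mouse skin that was given PRP-MNs, PRP alone or MNs alone, or belonged to the NC group, and each group had 1 library. Per the series title, the study concerned microneedles with platelet-rich plasma and hair regrowth. Platelet-rich plasma (PRP) is prepared from blood by concentrating its platelets, and microneedles (MNs) are patches of very short needles that pierce the skin surface. NC, the group the others were set against, is not spelled out in the labels, and the sources used here do not give strain, age, sex, number of animals, dose or time of harvest.

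Integrins are adhesion receptors built from 1 alpha and 1 beta chain, which link the matrix or a neighbouring cell to the cytoskeleton. Laminins are trimers of an alpha, a beta and a gamma chain and form the sheet of the basement membrane. In skin, the integrin of Itga6 and Itgb4 sits in hemidesmosomes and binds laminin-332, which holds the epidermis to the dermis. Integrins with the Itgb2 chain serve leukocytes in leaving vessels and in phagocytosis, and the laminins with Lama4 or Lama5 and the Lamc1 chain lie under endothelium and around other cells.

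Levels are FPKM, in which fragment numbers are divided by transcript length and by depth, so genes can be compared per length. The depth read from the spacing of low values was between 15.9 M fragments for PRP and 19.3 M for NC, and 3 fragments on a transcript of 1 kb came to between 0.155 and 0.189 FPKM, a floor that covers counting error only. Epidermal markers were present in every library, as the skin label has it, with the basal keratin gene Krt14 at 2055 FPKM in PRP-MNs skin, 3700 in PRP skin, 3339 in MNs skin and 3966 in NC skin. Skeletal muscle RNA was also present throughout, with Acta1 at 4777 FPKM in PRP-MNs skin, 4958 in PRP skin, 2926 in MNs skin and 2873 in NC skin. With 1 library per group there was no spread between replicates, no test could be made, and each value describes these libraries. A difference is the log2 ratio of FPKM + 1, and it was counted when it reached 2-fold and either library had 1 FPKM or more of the gene. In bulk skin, more cells of a type and more RNA per cell cannot be told apart.

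Against NC, integrin and laminin chains were higher or within 2-fold, and none was counted as lower. In PRP-MNs, 18 of 38 members were higher by 2-fold or more, where 17.6% of all genes compared were, and 0 were lower, where 11.5% of all genes were. A total of 31 members passed the level filter there, 32 in PRP and 34 in MNs. In PRP, 8 members were higher, where 7.78% of all genes were, and 0 were lower, where 1.46% were. With a pseudocount of 0.1 FPKM, 13 members were higher in PRP, and 1644 in place of 1053 of all 13533 genes compared. In MNs, 18 members were higher, where 15.7% of all genes were, and 0 were lower, where 7.12% were. The median difference over all 38 members was 0.72 in PRP-MNs, 0.35 in PRP and 0.92 in MNs, where the median of all genes compared was 0.14 in PRP-MNs, 0.04 in PRP and 0.16 in MNs. These 3 comparisons share the NC library. Of the 34 members that reached 1 FPKM in any library, 23 were lowest in NC, 17 were highest in PRP-MNs and 15 in MNs. Itga10, Itgad, Itgb2l and Lama1 stayed below 1 FPKM in every library. Itga1, Itga4, Itga9, Itgal and Itgb3 were below 1 FPKM in NC and entered the PRP-MNs count only through PRP-MNs, so they could be counted only as higher. The same held in MNs for these 5 and for Itga8 and Lamc3, and in the PRP count for Itga4.

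**Figure D1:**
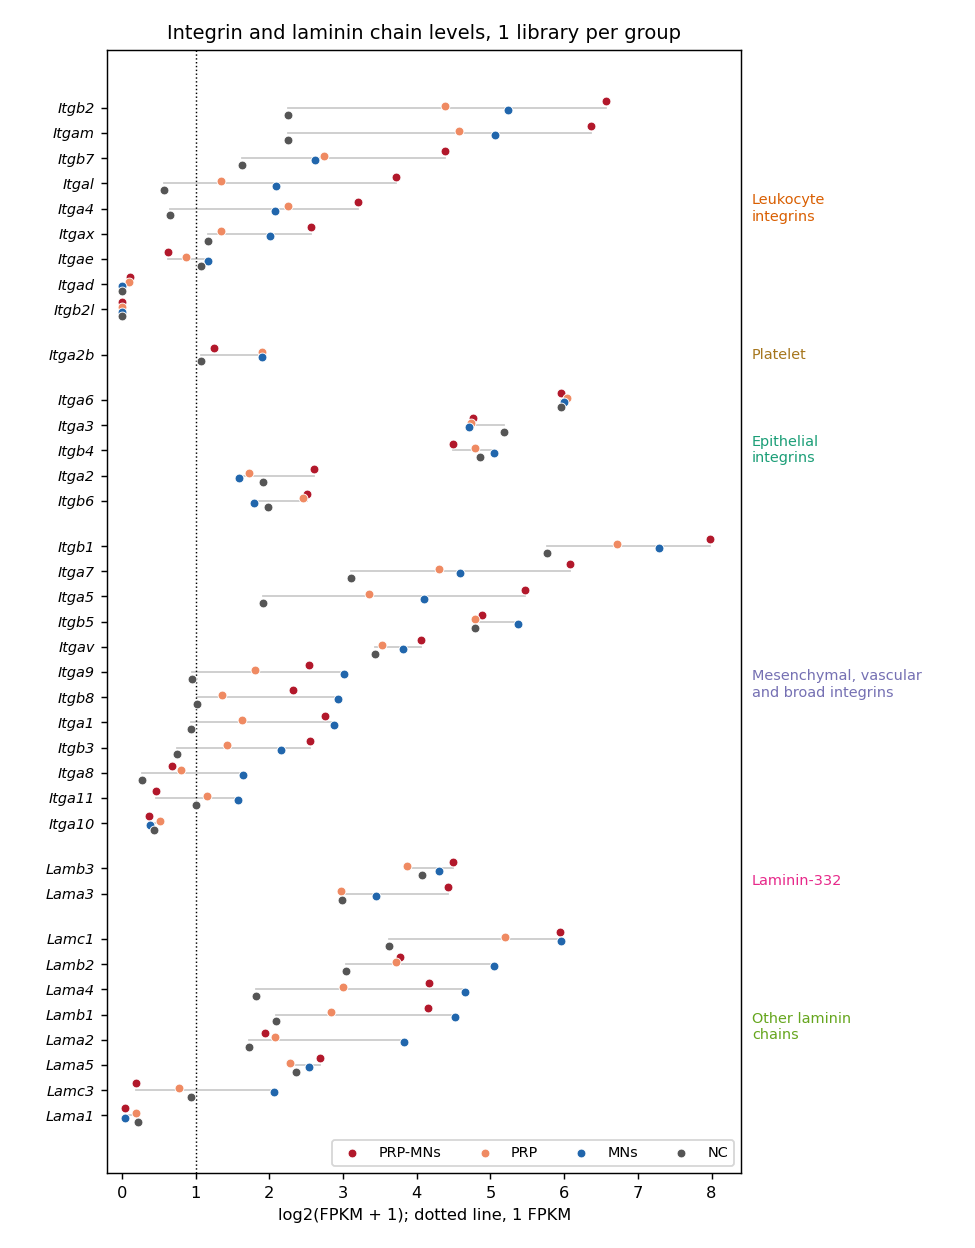
Levels of the integrin and laminin chain genes shown, as log2(FPKM + 1) (x axis) in the PRP-MNs, PRP, MNs and NC libraries (colours, slightly offset in height), with genes grouped by class; 1 point is 1 library. The leukocyte integrins Itgb2 and Itgam lie far apart between libraries, with 93.8 FPKM of Itgb2 in PRP-MNs against 3.78 FPKM in NC, while the 4 points of Itga6 lie together between 61.2 and 64.7 FPKM.

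In PRP-MNs against NC, the leukocyte integrins had the highest median difference of the classes. Itgb2, the beta chain shared by the main leukocyte integrins, was at 93.8 FPKM in PRP-MNs skin, 19.9 in PRP skin, 36.7 in MNs skin and 3.78 in NC skin, which was 24.8-fold higher in PRP-MNs than in NC as a ratio of FPKM. Its partner Itgam, the alpha chain of complement receptor 3 on neutrophils and macrophages, was at 81.7 FPKM in PRP-MNs skin, 22.9 in PRP skin, 32.4 in MNs skin and 3.76 in NC skin. Itgal, the alpha chain of LFA-1, which binds ICAM proteins on endothelium, was at 12.2 FPKM in PRP-MNs skin, 1.54 in PRP skin, 3.28 in MNs skin and 0.48 in NC skin. All of these were highest in PRP-MNs, second in MNs and lowest in NC. The NC level of Itgal rested on about 48.5 fragments.

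Itgb7, which pairs with Itga4 or Itgae on lymphocytes and mast cells, was at 19.8 FPKM in PRP-MNs skin, 5.66 in PRP skin, 5.13 in MNs skin and 2.08 in NC skin. Itga4, the alpha chain of the receptor for VCAM-1, was at 8.22 FPKM in PRP-MNs skin, 3.77 in PRP skin, 3.21 in MNs skin and 0.57 in NC skin. Itgax, known from dendritic cells and macrophages, was at 4.93 FPKM in PRP-MNs skin, 1.53 in PRP skin, 3.04 in MNs skin and 1.25 in NC skin. These 3 were again highest in PRP-MNs and lowest in NC. Itgae, the alpha chain with which epidermal T cells bind E-cadherin, was instead lowest in PRP-MNs, at 0.54 FPKM in PRP-MNs skin, 0.82 in PRP skin, 1.24 in MNs skin and 1.11 in NC skin. No treated group reached 2-fold from NC on the log2(FPKM + 1) scale. Its levels rested on between about 35.9 fragments in PRP-MNs and 88.7 in MNs. Itgad was at 0.08 FPKM in PRP-MNs, about 5.9 fragments, and at 0.07 FPKM in PRP, about 4.6 fragments, and was listed at 0 in MNs and NC. Itgb2l, a close relative of Itgb2, was listed at 0 in every library. In total, 6 of the 9 leukocyte members were higher by 2-fold or more in PRP-MNs than in NC, 4 in PRP and 4 in MNs. Of all genes compared, 17.6% were higher in PRP-MNs, 7.78% in PRP and 15.7% in MNs. The median over all 9 was 2.55 in PRP-MNs, 0.78 in PRP and 0.99 in MNs.

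On GRCm38, Itgb2 (ENSMUSG00000000290) spans chromosome 10 from 77530252 to 77565708 on the plus strand. Itgam (ENSMUSG00000030786) spans chromosome 7 from 128062640 to 128118491, with Itgax starting 11.1 kb after its end and Itgad 3.72 kb after the end of Itgax, all on the plus strand. Itgal lies on the same chromosome, 728 kb before Itgam, with 38 coding genes between them. The neighbours thus stood at very different levels and differences, with Itgam 21.7-fold and Itgax 3.94-fold higher in PRP-MNs than in NC as ratios of FPKM. Itgam, Itgax and Itgad are close relatives in sequence, and their single values may be uncertain, since the way shared fragments were counted is not stated in the labels.

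RefSeq promoter windows (GRCm38.p6, 250 bases before to 50 after the start) were given for 24 of the 38 members, among them Itga4, Itgam, Itgax and Itgb7 of the leukocyte genes above 1 FPKM. These 4 are shown because they were the leukocyte genes above 1 FPKM that had a window. All 4 were higher by 2-fold or more in PRP-MNs than in NC, where 17.6% of all genes compared were. Capitals mark GAGGAA on either strand (read as TTCCTC on the other), the core bound by PU.1, a transcription factor of myeloid cells.
Itgam, chr7:128062390-128062689, plus strand: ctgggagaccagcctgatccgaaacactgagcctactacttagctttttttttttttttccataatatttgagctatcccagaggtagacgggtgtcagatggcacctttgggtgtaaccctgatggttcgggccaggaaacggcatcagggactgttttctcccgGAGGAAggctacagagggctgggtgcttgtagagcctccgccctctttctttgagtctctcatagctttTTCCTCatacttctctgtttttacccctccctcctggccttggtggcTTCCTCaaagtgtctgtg
Itgax, chr7:128129300-128129599, plus strand: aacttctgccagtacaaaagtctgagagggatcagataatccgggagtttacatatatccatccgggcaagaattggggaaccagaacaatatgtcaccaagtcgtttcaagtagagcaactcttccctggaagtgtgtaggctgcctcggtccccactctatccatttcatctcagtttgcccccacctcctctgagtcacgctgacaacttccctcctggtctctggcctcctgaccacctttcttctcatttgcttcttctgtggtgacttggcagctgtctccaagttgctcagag
Itgb7, chr15:102231886-102232185, minus strand: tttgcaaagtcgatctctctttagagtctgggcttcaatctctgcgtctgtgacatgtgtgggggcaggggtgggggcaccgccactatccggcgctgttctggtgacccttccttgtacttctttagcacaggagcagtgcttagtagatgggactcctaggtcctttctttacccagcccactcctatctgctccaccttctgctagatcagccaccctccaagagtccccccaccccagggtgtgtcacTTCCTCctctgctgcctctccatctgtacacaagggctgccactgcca
Itga4, chr2:79255176-79255475, plus strand: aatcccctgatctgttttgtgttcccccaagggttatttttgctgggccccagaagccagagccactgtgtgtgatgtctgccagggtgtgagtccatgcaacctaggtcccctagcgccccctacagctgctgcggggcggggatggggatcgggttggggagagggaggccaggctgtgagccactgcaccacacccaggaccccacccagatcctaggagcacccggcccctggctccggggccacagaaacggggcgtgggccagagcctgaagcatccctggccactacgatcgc
The Itgam window held GAGGAA 3 times and the Itgb7 window 1 time, and the letters were not in the Itgax and Itga4 windows. The 24 members had 27 windows, and GAGGAA was in 15 of these 27 and in 28.3% of all 32851 windows. The longer AGAGGAAG, which contains it, was found in 6 of the 27 member windows and 4.55% of all windows. CCGGAAG was in 1 member window and 8.86% of all, and TGANTCA, the AP-1 motif, in 3 member windows and 7.81% of all. A match describes letters in this window only.

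By their summed levels, general leukocyte and macrophage markers were highest in PRP-MNs and lowest in NC, as Itgb2 and Itgam were. The sums for markers of other immune cells had other orders. All 6 general leukocyte markers were higher by 2-fold or more in PRP-MNs than in NC, and their summed level was 902 FPKM in PRP-MNs skin, 272 in PRP skin, 301 in MNs skin and 75.4 in NC skin. The 7 macrophage and monocyte markers summed to 2054 FPKM in PRP-MNs skin, 761 in PRP skin, 847 in MNs skin and 214 in NC skin, and the 6 neutrophil markers to 1019 FPKM in PRP-MNs skin, 406 in PRP skin, 182 in MNs skin and 234 in NC skin. Neutrophil markers were thus lower in MNs than in NC by their sum, but 3 of the 6 were at least 2-fold higher there and 0 were lower. S100a9, the largest part of the neutrophil sum, was at 106 FPKM in MNs skin and 163 in NC skin. Csf3r was at 15.9 FPKM in MNs skin and 0.74 in NC skin. Lyz2, Mrc1, S100a9 and Csf3r were named after their values were seen. The 4 T cell markers had sums of 6.01 FPKM in PRP-MNs skin, 13.3 in PRP skin, 5.07 in MNs skin and 24.1 in NC skin. The 3 Langerhans cell markers summed to 367 FPKM in PRP-MNs skin, 445 in PRP skin, 354 in MNs skin and 382 in NC skin. In this list 2 markers were below NC by 2-fold or more in PRP-MNs. Cd207 was at 0.97 FPKM in PRP-MNs skin, 11.3 in PRP skin, 4.43 in MNs skin and 23.3 in NC skin, and Epcam at 13.1 FPKM in PRP-MNs skin, 66.6 in PRP skin, 47.4 in MNs skin and 89.0 in NC skin. None of these markers was listed at 0. Set against Ptprc, the CD45 gene of all leukocytes, Itgb2 stood at a ratio of 1.14 in PRP-MNs skin, 0.90 in PRP skin, 1.38 in MNs skin and 0.77 in NC skin. The ratio of Itgb7 to Ptprc was 0.24 in PRP-MNs skin, 0.26 in PRP skin, 0.19 in MNs skin and 0.42 in NC skin, highest in NC, where the ratio of Itgb2 was lowest. The ratio of Itgam, Itgal, Itgax and Itgad together to Itgb2 was 1.05 in PRP-MNs skin, 1.31 in PRP skin, 1.06 in MNs skin and 1.45 in NC skin. The part of immune cell numbers in these differences was not tested.

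Itga2b, the alpha chain of the platelet fibrinogen receptor, was at 1.37 FPKM in PRP-MNs skin, 2.72 in PRP skin, 2.72 in MNs skin and 1.11 in NC skin. It was thus no higher in PRP-MNs than in MNs, with a difference of -0.65. As a ratio of FPKM it was 2.44-fold higher in PRP than in NC and 2.45-fold higher in MNs than in NC. These were not counted, since on the log2(FPKM + 1) scale the differences were 0.82 in PRP and 0.82 in MNs, and both passed 2-fold with a pseudocount of 0.1 FPKM, at 1.22. Of 6 platelet markers, the chemokine genes Pf4 and Ppbp carried nearly all of the signal, with Pf4 at 236 FPKM in PRP-MNs skin, 70.9 in PRP skin, 161 in MNs skin and 21.7 in NC skin and Ppbp at 56.1 FPKM in PRP-MNs skin, 0.74 in PRP skin, 6.06 in MNs skin and 0.31 in NC skin. The other 4 platelet markers were below 1 FPKM in every library, and Gp9, named after its values were seen, was listed at 0 in PRP-MNs.

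Of the epithelial integrins, Itga6, Itgb4 and Itga3 stayed within 2-fold across the libraries, and Itga2 did not. Itga6, the hemidesmosome alpha chain, was at 61.2 FPKM in PRP-MNs skin, 64.7 in PRP skin, 62.7 in MNs skin and 61.3 in NC skin. Its partner Itgb4 was at 21.6 FPKM in PRP-MNs skin, 26.7 in PRP skin, 32.2 in MNs skin and 28.0 in NC skin. Itga3, which binds laminin-332 outside hemidesmosomes, was at 26.2 FPKM in PRP-MNs skin, 25.7 in PRP skin, 25.1 in MNs skin and 35.2 in NC skin. Itga3 was thus highest in NC and Itgb4 in MNs. Itga2, a collagen receptor chain of keratinocytes and platelets, was highest in PRP-MNs, at 5.08 FPKM in PRP-MNs skin, 2.30 in PRP skin, 2.003 in MNs skin and 2.75 in NC skin. It was 2.54-fold higher in PRP-MNs than in MNs as a ratio of FPKM, and was counted there. Itgb6, which with Itgav activates TGF-beta at epithelial surfaces, was at 4.72 FPKM in PRP-MNs skin, 4.51 in PRP skin, 2.46 in MNs skin and 2.94 in NC skin. Of the 5 epithelial members, 0 were counted in either direction in any of the 3 treated groups against NC. Of all genes compared, 17.6% were higher and 11.5% lower in PRP-MNs, and 7.78% and 1.46% in PRP. In MNs, 15.7% were higher and 7.12% lower. With 5 genes, a count of 0 does not set this class apart from all genes.

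Keratinocyte markers did not stay level. Basal keratinocyte markers summed to 2783 FPKM in PRP-MNs skin, 5668 in PRP skin, 5313 in MNs skin and 6467 in NC skin, and suprabasal markers to 1320 FPKM in PRP-MNs skin, 8950 in PRP skin, 3143 in MNs skin and 17378 in NC skin. The ratio of Itga6 to the basal keratin Krt14 was 0.030 in PRP-MNs skin, 0.018 in PRP skin, 0.019 in MNs skin and 0.016 in NC skin. The ratio of Itgb4 to Krt14 was 0.011 in PRP-MNs skin, 0.0072 in PRP skin, 0.0096 in MNs skin and 0.0071 in NC skin. Both ratios were highest in PRP-MNs. Endothelial cells also express Itga6, and blood endothelium markers summed to 157 FPKM in PRP-MNs skin, 49.2 in PRP skin, 95.5 in MNs skin and 16.3 in NC skin. The part of these cell types in the level of Itga6 was not tested.

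Laminin-332, a ligand of these integrins, contains the chains Lama3 and Lamb3, which did not differ equally. Lama3, the alpha chain, was at 20.5 FPKM in PRP-MNs skin, 6.83 in PRP skin, 9.85 in MNs skin and 6.89 in NC skin. Lamb3, the beta chain, was at 21.6 FPKM in PRP-MNs skin, 13.6 in PRP skin, 18.7 in MNs skin and 15.8 in NC skin. Both were highest in PRP-MNs and lowest in PRP. Lama3 was 2.97-fold higher in PRP-MNs than in NC as a ratio of FPKM, and Lamb3 1.37-fold. The ratio of Lama3 to Lamb3 was 0.95 in PRP-MNs skin, 0.50 in PRP skin, 0.53 in MNs skin and 0.44 in NC skin. PRP and MNs each differed from NC by less than 2-fold in both chains.

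**Figure D2:**
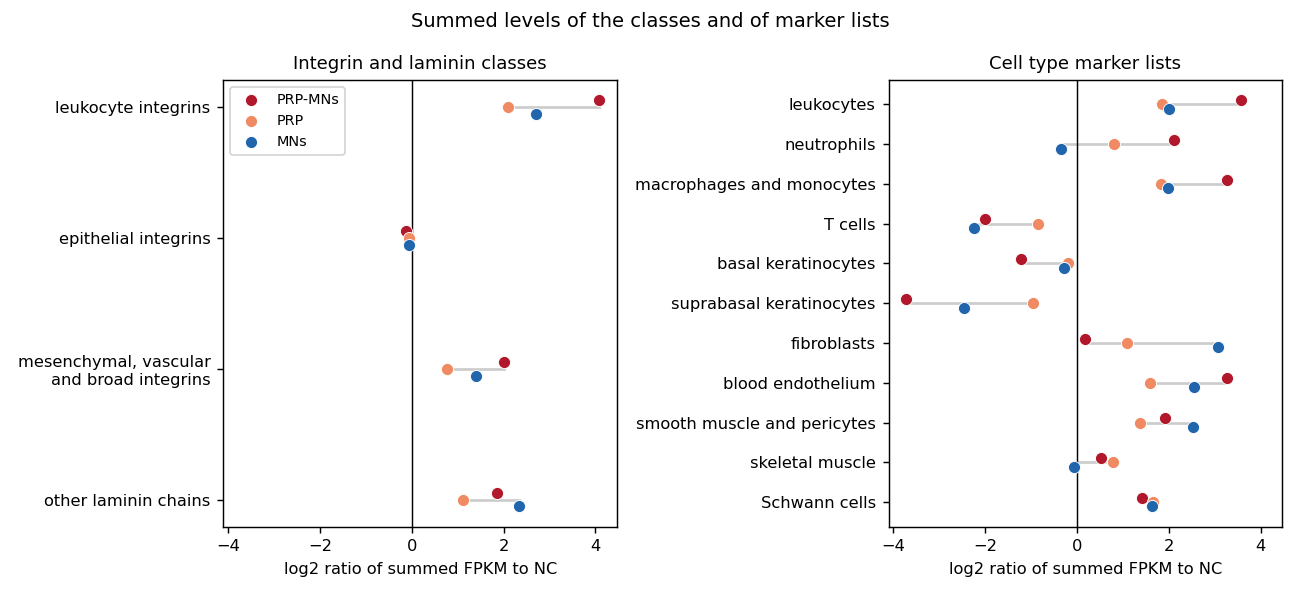
Log2 ratio of the summed FPKM of 4 classes to NC (x axis, left) and of cell type marker lists (right), for PRP-MNs, PRP and MNs (colours, slightly offset in height). Leukocyte integrins lie at ratios of 17.0 in PRP-MNs, 4.31 in PRP and 6.51 in MNs over NC, and epithelial integrins at 0.91 in PRP-MNs, 0.95 in PRP and 0.96 in MNs, while fibroblast markers lie at 1.14 in PRP-MNs, 2.14 in PRP and 8.37 in MNs.

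Among mesenchymal, vascular and broadly expressed integrins, Itga5 had the highest ratio of PRP-MNs to NC and Itgb1 the highest level. Itgb1, the beta chain shared by most matrix receptors, was the most abundant member in the 3 treated groups, at 252 FPKM in PRP-MNs skin, 104 in PRP skin, 156 in MNs skin and 53.5 in NC skin. Itga5, its partner in the fibronectin receptor, was at 43.3 FPKM in PRP-MNs skin, 9.24 in PRP skin, 16.1 in MNs skin and 2.77 in NC skin, a ratio of 15.6 between PRP-MNs and NC. Itga7, a laminin receptor chain best known from skeletal and smooth muscle, was at 66.8 FPKM in PRP-MNs skin, 18.8 in PRP skin, 23.1 in MNs skin and 7.58 in NC skin. All 3 were highest in PRP-MNs and lowest in NC. Itga7 was 8.81-fold higher in PRP-MNs than in NC, while skeletal muscle markers summed to 8411 FPKM in PRP-MNs skin, 10080 in PRP skin, 5603 in MNs skin and 5860 in NC skin, a ratio of 1.44 between PRP-MNs and NC. Markers of smooth muscle and pericytes summed to 191 FPKM in PRP-MNs skin, 130 in PRP skin, 288 in MNs skin and 50.2 in NC skin, and those of Schwann cells to 101 FPKM in PRP-MNs skin, 119 in PRP skin, 117 in MNs skin and 37.8 in NC skin. Neither list was highest in PRP-MNs, and their part in the level of Itga7 was not tested.

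A second group of chains was highest in MNs. Itga9, which binds tenascin-C and osteopontin, was at 4.79 FPKM in PRP-MNs skin, 2.49 in PRP skin, 7.04 in MNs skin and 0.93 in NC skin. Itga1, a collagen receptor chain, was at 5.78 FPKM in PRP-MNs skin, 2.08 in PRP skin, 6.33 in MNs skin and 0.91 in NC skin. Itgb8, which with Itgav activates TGF-beta, was at 4.01 FPKM in PRP-MNs skin, 1.57 in PRP skin, 6.66 in MNs skin and 1.03 in NC skin. For each of these 3, PRP-MNs and MNs lay within 2-fold of each other and PRP lay between them and NC. Itga8, the nephronectin receptor chain of smooth muscle and fibroblasts, passed 1 FPKM only in MNs, and was at 0.60 FPKM in PRP-MNs skin, 0.74 in PRP skin, 2.13 in MNs skin and 0.21 in NC skin, with about 23.4 fragments in NC. Itga11, the fibrillar collagen receptor of fibroblasts, was at 0.38 FPKM in PRP-MNs skin, 1.23 in PRP skin, 1.97 in MNs skin and 1.00 in NC skin. Itga1 was highest in MNs and Itga2 in PRP-MNs, although these collagen receptor genes are direct neighbours on chromosome 13, Itga2 (ENSMUSG00000015533) from 114833081 to 114932100 and Itga1 (ENSMUSG00000042284) from 114953096 to 115101964.

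Itgav and Itgb5, chains of vitronectin receptors, stayed within 2-fold across the libraries. Itgav was at 15.6 FPKM in PRP-MNs skin, 10.5 in PRP skin, 13.0 in MNs skin and 9.81 in NC skin, and Itgb5 at 28.5 FPKM in PRP-MNs skin, 26.7 in PRP skin, 40.5 in MNs skin and 26.6 in NC skin. Itgb3, the partner of Itgav in sprouting endothelium and of Itga2b in platelets, was at 4.85 FPKM in PRP-MNs skin, 1.68 in PRP skin, 3.47 in MNs skin and 0.68 in NC skin. Unlike Itgav, it was 7.09-fold higher in PRP-MNs than in NC as a ratio of FPKM. Itga10, a collagen receptor chain of cartilage, was below 0.5 FPKM in every library, at 0.29 FPKM in PRP-MNs skin, 0.43 in PRP skin, 0.31 in MNs skin and 0.35 in NC skin. Of the 12 members of this class, 7 were higher by 2-fold or more in PRP-MNs than in NC, 2 in PRP and 8 in MNs. The shares of all genes that were higher were 17.6% in PRP-MNs, 7.78% in PRP and 15.7% in MNs. The ratio of Itgb1 to the summed level of its 12 alpha partners was 1.06 in PRP-MNs skin, 0.73 in PRP skin, 0.96 in MNs skin and 0.43 in NC skin.

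Of the 7 laminin chains outside laminin-332 that reached 1 FPKM, 6 were highest in MNs. Lamc1, the gamma chain of most laminins, was at 60.3 FPKM in PRP-MNs skin, 35.6 in PRP skin, 61.3 in MNs skin and 11.3 in NC skin. Lama4, the alpha chain of vessel laminin, was at 16.9 FPKM in PRP-MNs skin, 7.02 in PRP skin, 24.3 in MNs skin and 2.53 in NC skin. Lamb1, a beta chain that pairs with Lamc1, was at 16.7 FPKM in PRP-MNs skin, 6.13 in PRP skin, 21.9 in MNs skin and 3.26 in NC skin. In these 3 chains PRP-MNs and MNs were within 2-fold of each other and both were at least 5.13-fold above NC. The ratio of Lama4 to the endothelial gene Pecam1 was 0.21 in PRP-MNs skin, 0.32 in PRP skin, 0.52 in MNs skin and 0.37 in NC skin, and the part of vessels in these differences was not tested. Col4a1, the type IV collagen that lies with laminin in basement membranes, was also higher in both microneedle groups, at 108 FPKM in PRP-MNs skin, 32.8 in PRP skin, 101 in MNs skin and 8.79 in NC skin.

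Lama2, Lamb2 and Lamc3 stood apart in MNs. Lama2, the alpha chain of muscle and nerve laminin, which dermal fibroblasts also make, was at 2.83 FPKM in PRP-MNs skin, 3.23 in PRP skin, 13.2 in MNs skin and 2.29 in NC skin. Lamb2 was at 12.6 FPKM in PRP-MNs skin, 12.2 in PRP skin, 32.2 in MNs skin and 7.19 in NC skin. Lamc3, a laminin gamma chain, was at 0.14 FPKM in PRP-MNs skin, 0.71 in PRP skin, 3.19 in MNs skin and 0.91 in NC skin. Each was thus at least 2-fold higher in MNs than in NC and at least 2-fold lower in PRP-MNs than in MNs. The PRP-MNs level of Lamc3 rested on about 14.4 fragments. Fibroblast markers were also highest in MNs by their sum. It was 974 FPKM in PRP-MNs skin, 1837 in PRP skin, 7180 in MNs skin and 858 in NC skin. In MNs, 6 of 6 were at least 2-fold above NC, and in PRP-MNs only 1 was, Pdgfra. Pdgfra, named after its values were seen, was at 45.6 FPKM in PRP-MNs skin, 15.6 in PRP skin, 59.8 in MNs skin and 4.75 in NC skin. It stayed within 2-fold between PRP-MNs and MNs. The other 5 markers passed 2-fold there, with the higher level in MNs. The ratio of Lama2 to the fibroblast matrix gene Dcn was 0.0089 in PRP-MNs skin, 0.0055 in PRP skin, 0.0089 in MNs skin and 0.0074 in NC skin. The part of fibroblasts in these differences was not tested.

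Lama5, the alpha chain of the laminin that underlies both epidermis and mature vessels, was at 5.42 FPKM in PRP-MNs skin, 3.85 in PRP skin, 4.81 in MNs skin and 4.15 in NC skin, a range below 2-fold. Lama1, an embryonic chain, was at 0.030 FPKM in PRP-MNs skin, 0.14 in PRP skin, 0.032 in MNs skin and 0.16 in NC skin. Of the 8 chains, 3 were higher by 2-fold or more in PRP-MNs than in NC, 2 in PRP and 6 in MNs. The shares of all genes that were higher were 17.6% in PRP-MNs, 7.78% in PRP and 15.7% in MNs. The median over all 8 chains was 0.53 in PRP-MNs, 0.52 in PRP and 2.06 in MNs.

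**Figure D3:**
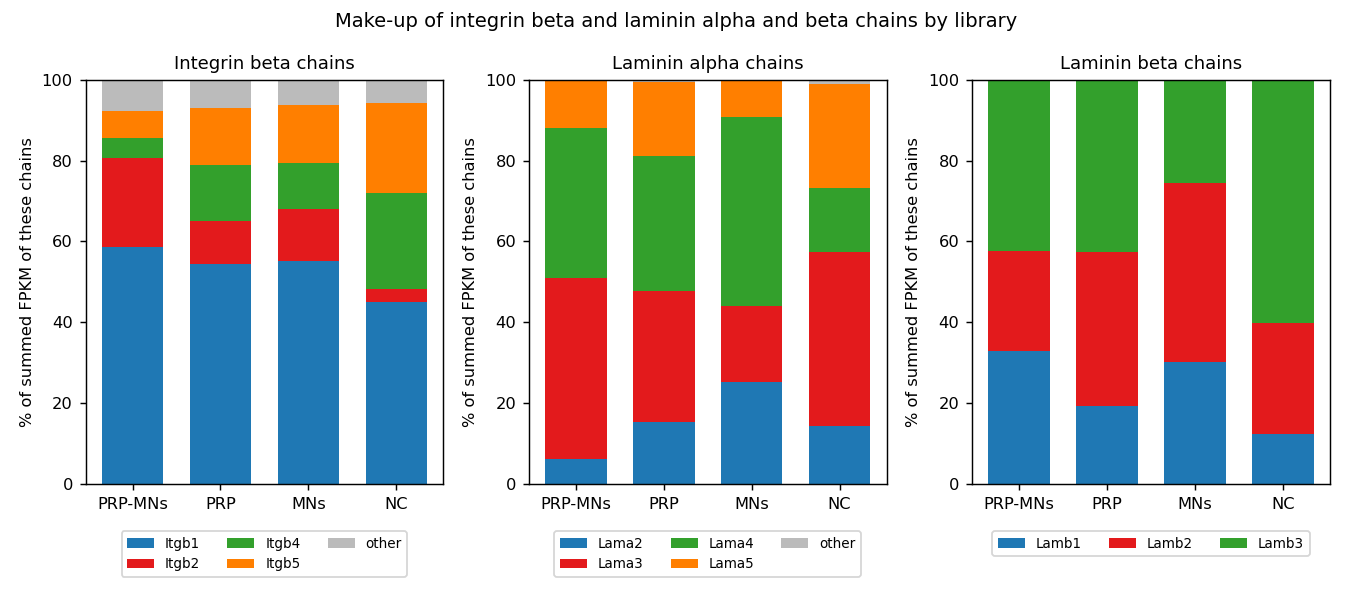
Share of each chain in the summed FPKM of the integrin beta, laminin alpha and laminin beta chains (y axis, percent) in the PRP-MNs, PRP, MNs and NC libraries. Itgb2 makes up 21.8% of beta chains in PRP-MNs and 3.19% in NC, Itgb4 5.02% in PRP-MNs and 23.6% in NC, Lama4 46.6% of laminin alpha chains in MNs and 15.8% in NC, and Lamb3 42.3% of laminin beta chains in PRP-MNs and 60.2% in NC.

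The make-up of both families differed between libraries. All integrin chains together summed to 769 FPKM in PRP-MNs skin, 362 in PRP skin, 488 in MNs skin and 250 in NC skin. Of that sum, epithelial chains took 15.4% in PRP-MNs skin, 34.2% in PRP skin, 25.5% in MNs skin and 52.1% in NC skin. Leukocyte chains took 28.8% in PRP-MNs skin, 15.5% in PRP skin, 17.4% in MNs skin and 5.22% in NC skin. Shares of 1 sum are tied together, and the epithelial chains themselves summed to 119 FPKM in PRP-MNs skin, 124 in PRP skin, 125 in MNs skin and 130 in NC skin. Among laminin alpha chains, Lama3 took 44.8% in PRP-MNs skin, 32.4% in PRP skin, 18.9% in MNs skin and 43.0% in NC skin, and Lama2 took 6.20% in PRP-MNs skin, 15.3% in PRP skin, 25.2% in MNs skin and 14.3% in NC skin. Lama3 had its lowest share in MNs although its level there, 9.85 FPKM, was above that in NC, 6.89 FPKM.

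PRP-MNs was compared with each single treatment to ask what the combination showed beside it. Against PRP, 14 members were higher in PRP-MNs by 2-fold or more, where 9.54% of all genes were, and 0 were lower, where 7.5% of all genes were. By ratio of FPKM, Itgal was 7.96-fold, Itgb2 4.71-fold and Itga5 4.69-fold higher. Against MNs, 9 members were higher in PRP-MNs, where 7.16% of all genes were, and 4 were lower, where 7.39% were. The higher members included the leukocyte chains Itga4, Itgal, Itgam, Itgb2 and Itgb7, and Itga2, Itga5 and Itga7. The 4 lower were the collagen receptor chain Itga11 and the laminin chains Lama2, Lamb2 and Lamc3. Itga11 and Lamc3 were below 1 FPKM in PRP-MNs and passed the filter only through MNs, so they could be counted only as lower. PRP against MNs gave 0 higher members, where 4.62% of all genes were higher, and 8 lower, where 5.99% were. The 8 were Itga1, Itga9, Itgb8, Lama2, Lama4, Lamb1, Lamb2 and Lamc3, with differences between -1.74 for Lama2 and -1.20 for Itga9. Lamc3, below 1 FPKM in PRP, could again be counted only as lower.

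**Figure D4:**
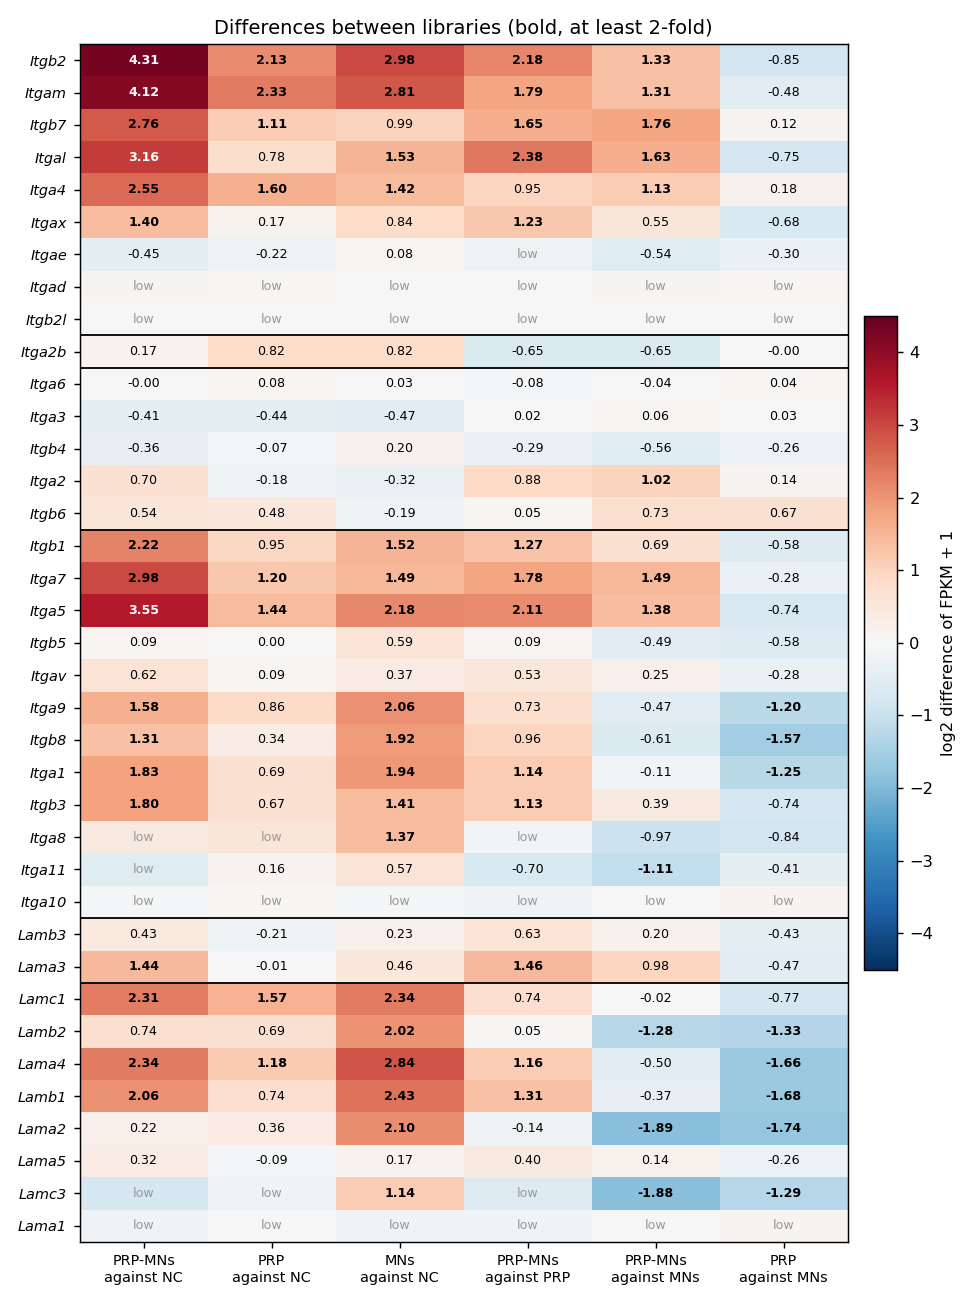
Log2 differences of FPKM + 1 (colour and printed value) for the members shown (rows, by class) in the 6 comparisons (columns); bold marks at least 2-fold and "low" marks genes below 1 FPKM in both libraries. In the column of PRP-MNs against MNs, 5 leukocyte chains are positive and bold (Itgb7 at 1.76), and Lama2 at -1.89 and Lamc3 at -1.88 are negative and bold.

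The layout also gave the microneedle difference in 2 pairs that share no library. For Lamc1 it was 0.74 with PRP (PRP-MNs minus PRP) and 2.34 without (MNs minus NC). For Lama4 it was 1.16 with PRP and 2.84 without, and for Lamb2 0.05 with and 2.02 without. Lama5 ran the other way, at 0.40 with PRP and 0.17 without. So did Lama3, at 1.46 with PRP and 0.46 without. For Itga5 the values were close, at 2.11 with PRP and 2.18 without, and for Itgb1 they were 1.27 with and 1.52 without. For the leukocyte chains the order was mixed, since Itgal was at 2.38 with PRP and 1.53 without, and Itgam at 1.79 with and 2.81 without. None of these gaps could be tested.

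**Figure D5:**
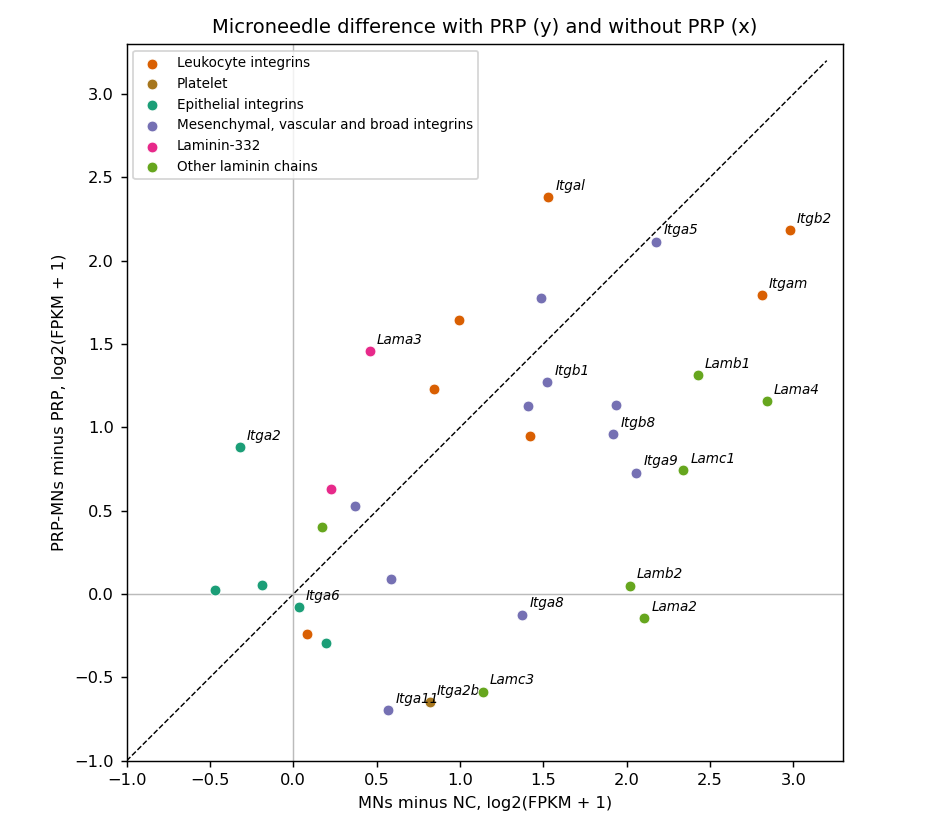
Microneedle difference in log2(FPKM + 1) without PRP (x axis, MNs minus NC) and with PRP (y axis, PRP-MNs minus PRP) for the members shown that reached 1 FPKM in any library, coloured by class; the dashed line marks equal differences. Lama3 lies above the line and Lama2, Lamb2 and Lama4 below it.

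The genes that work with these chains were read from lists of partners. Beside the count of each list stands the share of all genes that were higher than in NC. It was 17.6% in PRP-MNs, 7.78% in PRP and 15.7% in MNs. Of 19 integrin activators and adhesion adaptors, 14 were higher by 2-fold or more in PRP-MNs than in NC, 4 in PRP and 11 in MNs, and none was lower. Apbb1ip, which links Rap1 to talin, was at 27.0 FPKM in PRP-MNs skin, 11.8 in PRP skin, 14.0 in MNs skin and 2.49 in NC skin. Fermt3, the kindlin of blood cells, was at 24.9 FPKM in PRP-MNs skin, 10.2 in PRP skin, 15.5 in MNs skin and 2.58 in NC skin, and Tln1, the talin that activates integrins, at 46.3 FPKM in PRP-MNs skin, 18.9 in PRP skin, 34.6 in MNs skin and 9.50 in NC skin. These adaptors shared the order of Itgb2. They were named for their large difference between PRP-MNs and NC, which set their high place in PRP-MNs beforehand. Not all 19 had this order. Of 8 surface ligands of leukocyte integrins, 5 were higher in PRP-MNs, 2 in PRP and 5 in MNs. Icam1, the ligand of LFA-1, was at 32.7 FPKM in PRP-MNs skin, 9.99 in PRP skin, 19.9 in MNs skin and 5.61 in NC skin, and Vcam1, the ligand of Itga4 integrins, at 7.76 FPKM in PRP-MNs skin, 2.36 in PRP skin, 4.45 in MNs skin and 0.78 in NC skin. Both had the same order of the 4 libraries as Itgb2. They too were named for a large difference between PRP-MNs and NC, and not all 8 ligands had this order. Cdh1, the E-cadherin that Itgae binds, was at 33.3 FPKM in PRP-MNs skin, 67.8 in PRP skin, 64.4 in MNs skin and 90.3 in NC skin.

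Of 11 matrix ligands, 8 were higher by 2-fold or more in PRP-MNs than in NC, 6 in PRP and 8 in MNs. The 1 that was lower in PRP-MNs, named after its values were seen, was Postn, periostin, at 83.2 FPKM in PRP-MNs skin, 138 in PRP skin, 192 in MNs skin and 193 in NC skin. Spp1, osteopontin, was at 545 FPKM in PRP-MNs skin, 34.4 in PRP skin, 38.4 in MNs skin and 4.74 in NC skin. Tnc, tenascin-C, was instead highest in MNs, at 48.9 FPKM in PRP-MNs skin, 12.2 in PRP skin, 112 in MNs skin and 6.17 in NC skin. Of 10 basement membrane partners, 5 were higher in PRP-MNs, 3 in PRP and 5 in MNs, and Col7a1 alone was lower, in PRP-MNs and in MNs. Hspg2, perlecan, was at 25.3 FPKM in PRP-MNs skin, 11.01 in PRP skin, 29.3 in MNs skin and 4.35 in NC skin. Col7a1, which anchors laminin-332 to the dermis, was at 1.73 FPKM in PRP-MNs skin, 7.28 in PRP skin, 3.97 in MNs skin and 9.13 in NC skin.

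Of 5 hemidesmosome partners of Itga6 and Itgb4, 1 was at least 2-fold lower in PRP-MNs than in NC, where 11.5% of all genes were. None of the 5 was higher in any treated group. Col17a1, the transmembrane collagen of the hemidesmosome, was at 47.6 FPKM in PRP-MNs skin, 120 in PRP skin, 93.1 in MNs skin and 154 in NC skin. The ratio of Itgb4 to Col17a1 was 0.45 in PRP-MNs skin, 0.22 in PRP skin, 0.35 in MNs skin and 0.18 in NC skin. Cd151, a tetraspanin that binds laminin receptors, was at 89.9 FPKM in PRP-MNs skin, 53.2 in PRP skin, 84.3 in MNs skin and 44.6 in NC skin, a log2 difference of 1.00 between PRP-MNs and NC that lay just under 2-fold before rounding. Between PRP-MNs and NC, Itga6, Itgb4 and 4 of the 5 partners thus lay within 2-fold. Col17a1, the partner with the largest difference, was lower.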

How the data were processed

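Skin RNA of 4 groups was measured, with 1 library each. The values are FPKM of each gene in 1 table that the authors deposited, used without change. The kit was NEBNext Ultra, per the labels' protocols, and GRCm38 is the build named in the submitters' processing notes. Aligner, quantification tool, annotation and strandedness are not given in the sources used here. Genes that share exons with a gene of the other strand, such as Itga7 with Mettl7b or Itga4 with Cerkl, may be uncertain. So may those that share exons with a gene of the same strand, such as Itgam with Gm49368 or Itga1 with Gm49395. Groups came from the treatment label.

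Differences are log2 ratios of FPKM + 1, computed with python 3.11.15 and pandas 2.3.3. They were counted at 2-fold where the gene reached 1 FPKM in either library. No test was possible, since each group had 1 library. The counting was tested on simulated data. Depth was taken from the spacing of low FPKM values in genes with 1 annotated transcript. At the best spacing between 23.7% and 28.3% of these values were within 0.02 of whole fragment numbers, too few to recover counts, and no count test was run. Fragment numbers are approximate, use the longest coding transcript of GENCODE M21 and cover counting error only. All members could be named, as could the 4 genes of each partner list with the largest difference between PRP-MNs and NC, and up to 2 markers per list. Ccn1, Trac and Trdc were not analysed here, and the values of 1 member, which stays in the counts, are not reported here. Members, lists and motifs were chosen with earlier results of these data known. The 7 alternatives were a pseudocount of 0.1 FPKM, no filter, a filter at 5 FPKM, a common FPKM sum with and without mitochondrially encoded genes, a common upper quartile, and centring on the median gene.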

Additional observations from a re-analysis of the deposited data

Results flagged for a closer look

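Among members that passed the level filter in both pairs and reached 2-fold in at least 1 of them, 6 had PRP differences of opposite sign with microneedles (PRP-MNs minus MNs) and without (PRP minus NC). Lama2 was at -1.89 with microneedles and 0.36 without, a gap of -2.25. The same gap separates its microneedle differences, which were -0.14 with PRP and 2.10 without. Lamb2 was at -1.28 with microneedles and 0.69 without, a gap of -1.97. Lama4 was at -0.50 with and 1.18 without, a gap of -1.68, and Lamc1 at -0.02 with and 1.57 without, a gap of -1.59. The collagen receptor chain Itga11 was at -1.11 with microneedles and 0.16 without, a gap of -1.27. Itga2, another collagen receptor chain, had the opposite signs, at 1.02 with and -0.18 without, a gap of 1.20. Each value comes from 1 library per group, and none of these gaps was tested.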

How the results depend on the processing

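No paired analysis was possible because each group had 1 library. Of 1343 differences of single members recomputed under the 7 alternatives, 1313 stayed on the same side of 2-fold, 28 newly passed it and 2 no longer did. Direction was followed only for differences that had reached 2-fold, and 0 of those changed it. Dropping the filter or setting it at 5 FPKM leaves each difference unchanged. The 228 values without a filter and the 134 with the filter at 5 FPKM could therefore only stay. With a pseudocount of 0.1 FPKM, 13 members in place of 8 were higher in PRP than in NC, and 1 in place of 0, Itga11 at -1.48, was lower in PRP-MNs than in PRP. With the filter at 5 FPKM, 2 members in place of 4 were lower in PRP-MNs than in MNs, since fewer genes were compared. All other counts of members stayed within 1.5 times. The values that no longer passed were Itga2 in PRP-MNs against MNs (0.99 with a common upper quartile) and Lamc3 in MNs against NC (0.98 when centred). A common FPKM sum moved the median of all genes to 0.29 from 0.14 in PRP-MNs against NC, to 0.34 from 0.16 in MNs against NC and to -0.24 from -0.10 in PRP against MNs. Over all genes, 1729 were higher and 1261 lower in MNs against NC when centred (2188 and 991 as reported), 891 and 339 in PRP against NC with a common upper quartile (1053 and 197), and 513 and 1092 in PRP against MNs with a common sum (640 and 829). Of all genes, 1644 were higher and 432 lower in PRP against NC with a pseudocount of 0.1 FPKM, 130 were lower there with the filter at 5 FPKM, and 1285 in place of 829 were lower in PRP against MNs with the smaller pseudocount. Depth limits Itga8, Itgal and Itgb3 in NC, with about 23.4, 48.5 and 76.4 fragments.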
